A study of Mus musculus with 6 samples.

Results

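Genes of efferocytosis, the engulfment of dying cells by phagocytes, were followed across the immune cells of CT26 tumors. The 10 genes were set by name, with earlier results of these data known. All 10 were among the 20649 genes of the count matrix. They were the receptors Mertk, Axl, Timd4 and Itgav, the bridging factors Gas6, Pros1 and Mfge8, the inhibitory receptor Sirpa with its ligand Cd47, and the growth factor Igf1. Their levels were read in macrophage, dendritic, S100a9 and lymphocyte barcodes, with each class set by UMIs (counted molecules) of a few marker genes. None of the 10 genes was used to set a class.

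A dying cell shows phosphatidylserine on its surface. Timd4 (TIM-4) binds this lipid directly, whereas the receptor tyrosine kinases Mertk and Axl reach it through Gas6 and, for Mertk, Pros1 (protein S). The integrin subunit Itgav, paired with a beta subunit, reaches it through Mfge8. Cd47 on a target cell engages Sirpa on the phagocyte and restrains engulfment. Igf1 is a growth factor made by many resident and tissue-repair macrophages, and is known to redirect what neighbouring cells take up.

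CT26 is a colon carcinoma line, grown here under the skin of BALB/c mice. Tumors were injected with exosomes carrying an antisense oligonucleotide against Stat6 (exoASO-STAT6, 3 samples) or a scrambled one (exoASO-Scramble, 3 samples), 3 times in all on alternate days, and were collected 24 h after the last dose, digested and enriched for CD45-positive cells. Every animal carried the tumor and received exosomes, so no sample is untreated. Single cells were profiled by 3′ droplet RNA sequencing, and counts of all samples were deposited as 1 matrix of 9235 barcodes. The barcode suffixes, 3 to 8, are found in none of the sample labels. They were therefore taken as 6 libraries of unknown treatment, no treatment was compared, and no difference between classes below was tested.

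The libraries held between 867 and 2017 barcodes each, with a median depth per barcode from 7270 to 16125 UMIs, and 16 barcode sequences occurred under more than 1 suffix. Macrophages were barcodes with at least 3 UMIs of Csf1r and Adgre1 together and none of Cd3e or Ncr1. They numbered 4688, or 50.8% of all barcodes, and made up 48.1% to 54.2% of each library. Of these, 542 had exactly 3 such UMIs, and a further 602 barcodes stood just outside the rule with 2. Macrophages were split in 4 ways, by C1qa (a complement subunit of mature macrophages), Ly6c2 (a marker of recent monocyte origin), Rsad2 (an interferon-induced gene) and Cd163 (a scavenger receptor of perivascular and repair macrophages). These splits are ranges of a count and not cell types. The libraries differed widely in them, with 22.1% to 69.4% C1qa-high, 13.6% to 49.1% Ly6c2-high, 9.18% to 51.7% Rsad2-high and 0.730% to 11.8% Cd163-high macrophages.

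Levels are given as UMIs of a gene per 1000000 UMIs of the class (CPM), summed over its barcodes, and intervals are exact 95% Poisson intervals for counting error only. Levels are compared between classes and libraries, not between genes. A gene was called between 2 classes where the summed CPM differed at least 2-fold and in the same direction in every library with at least 20 barcodes in both classes, among genes at 10 CPM or more in either. Mfge8, at 6.18 CPM in macrophages, passed this minimum in 1 of the 8 comparisons, and the other 9 genes passed it in all. Whether more RNA per cell or more cells with the RNA lies behind a summed level cannot be told apart from the CPM.

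By the GENCODE M21 annotation of GRCm38, Mertk lies at chr2:128698956-128802894, Itgav at chr2:83724397-83806916 and Sirpa at chr2:129592835-129632228, all on the plus strand. Axl lies at chr7:25757273-25788705 and Mfge8 at chr7:79133768-79149060, both on the minus strand. Gas6 lies at chr8:13465374-13494490 on the minus strand, Igf1 at chr10:87858265-87937042, Timd4 at chr11:46810800-46844332, Cd47 at chr16:49800533-49915010 and Pros1 at chr16:62854307-62929346, these last 4 on the plus strand. Gas6 overlaps Tmem255b, Igf1 overlaps Igf1os and Itgav overlaps Gm13684 on the opposite strand, and all 3 partners are in the matrix. Whether counting used the strand is not given in the sources used here.

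Promoters of 9 of the genes were found in a RefSeq table on GRCm38.p6 that holds 250 bases before to 50 after a start site. Gas6 and Igf1 are shown because their levels went together across macrophages (below), and Pros1 because it alone held the spaced palindrome TTC, 4 bases of any kind, GAA, to which STAT6 is known to bind. It is in capitals. This motif, which reads the same on both strands, was in 6.95% of 32851 promoters of the table and in 1 of 10 promoters of the genes followed here, Cd47 having 2. The interferon-response motif GAAA, 2 bases of any kind, GAAA, searched on both strands, was in 3.44% of promoters and in 0 of these 10. A match is a description of the letters and not a bound site. The first is at chr8:13494486-13494785, minus strand, the second at chr10:87860861-87861160, plus strand and the third at chr16:62854057-62854356, plus strand.
Gas6: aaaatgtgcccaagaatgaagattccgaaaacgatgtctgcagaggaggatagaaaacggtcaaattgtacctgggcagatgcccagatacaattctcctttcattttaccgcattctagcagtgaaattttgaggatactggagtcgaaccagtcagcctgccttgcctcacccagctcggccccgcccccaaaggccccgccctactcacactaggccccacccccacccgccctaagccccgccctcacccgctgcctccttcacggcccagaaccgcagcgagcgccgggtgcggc
Igf1: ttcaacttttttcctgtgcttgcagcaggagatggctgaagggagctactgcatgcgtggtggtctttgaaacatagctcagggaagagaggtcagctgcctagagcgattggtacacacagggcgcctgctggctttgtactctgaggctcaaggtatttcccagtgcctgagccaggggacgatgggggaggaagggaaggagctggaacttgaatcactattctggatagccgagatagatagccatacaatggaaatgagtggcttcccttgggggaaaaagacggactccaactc
Pros1: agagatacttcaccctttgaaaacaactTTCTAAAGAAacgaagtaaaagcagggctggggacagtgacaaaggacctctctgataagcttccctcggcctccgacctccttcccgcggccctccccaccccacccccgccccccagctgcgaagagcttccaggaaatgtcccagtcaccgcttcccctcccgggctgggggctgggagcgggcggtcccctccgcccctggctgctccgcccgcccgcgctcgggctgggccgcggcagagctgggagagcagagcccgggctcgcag

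Gas6 was the gene that separated macrophage states most often. It was called in all 4 macrophage splits, higher in C1qa-high and Cd163-high macrophages and lower in Ly6c2-high and Rsad2-high macrophages, although the Rsad2 call depended on how libraries were weighted and the C1qa call on the threshold of the split. In macrophages as a whole it stood at 111, 65.2, 206, 23.3, 38.7 and 53.9 CPM in suffixes 3 to 8 in that order, so suffix 5 was the highest and suffix 6 the lowest. Suffix 5 was also highest, at 163 CPM, among Cd163-low macrophages alone, where the other libraries lay between 21.0 and 96.3 CPM.

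**Figure D1:**
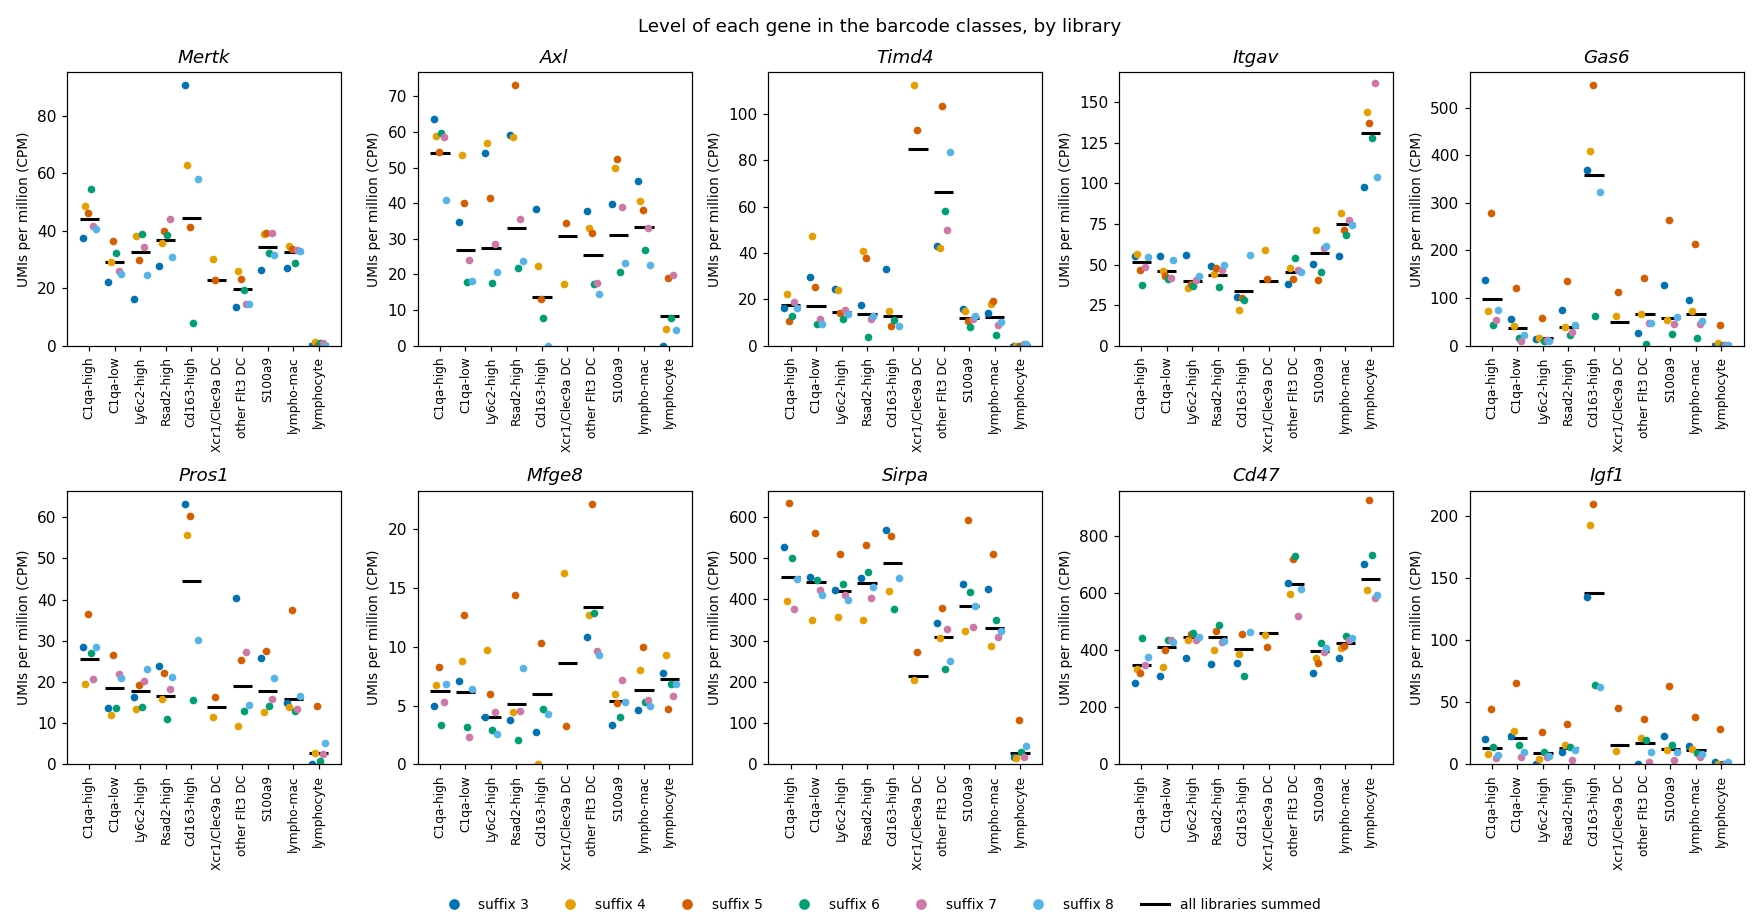
Level of each of the 10 genes in UMIs per 1000000 (CPM, linear axis from 0) in 10 classes of barcodes, where points are the libraries with at least 20 barcodes in the class and black bars are all libraries summed. Gas6 and Igf1 stand highest in Cd163-high macrophages, Timd4 in both dendritic (DC) classes, and Itgav in lymphocytes, while Mertk lies near 0 in lymphocytes (0.677 CPM).

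Cd163-high macrophages carried the highest levels of Gas6 and Igf1 of the classes compared. The class was small, with 220 barcodes, of which 99 came from suffix 5 and 6 from suffix 7, so 5 libraries entered the comparison. Gas6 stood there at 369, 408, 547, 62.6 and 323 CPM in suffixes 3, 4, 5, 6 and 8, against 96.3, 58.2, 163, 21.0 and 47.1 CPM in the Cd163-low macrophages of the same libraries. The Cd163-high value was higher in 5 of 5 libraries, and the classes overlapped between libraries only through suffix 6. Summed, Gas6 was at 359 against 61.6 CPM, 5.83-fold higher (interval 5.44 to 6.24), with a median of 3.83-fold within a library.

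Igf1 followed the same split. It stood at 135, 193, 210, 64.1 and 62.4 CPM in Cd163-high macrophages of suffixes 3, 4, 5, 6 and 8, against 14.2, 8.61, 34.3, 12.3 and 7.07 CPM in the Cd163-low macrophages. The 2 sets of values did not overlap. Summed, Igf1 was at 138 against 11.7 CPM, 11.8-fold higher (interval 10.4 to 13.3). Of all genes tested in this split, 2.31% were called higher, and 2 of the 9 members tested were, Gas6 and Igf1. The members were chosen with earlier results of these data known, so their count is not independent of the data. Left out in turn, no library ended either call, and without suffix 5 the log2 ratio was 2.37 for Gas6 and 3.46 for Igf1.

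Axl went the other way. It was at 38.5, 22.3, 13.2, 7.82 and 0 CPM in the Cd163-high macrophages of suffixes 3, 4, 5, 6 and 8, against 55.2, 58.4, 52.2, 31.0 and 32.3 CPM in the Cd163-low ones. Cd163-high macrophages were lower in 5 of 5 libraries. Summed over all libraries, Axl was at 13.7 against 44.1 CPM, 3.23-fold lower (interval 2.36 to 4.55). It was the 1 member called lower, where 1.96% of all genes were. The ligand Gas6 and its receptor Axl thus differed in opposite directions across this split. Where every macrophage with a Cd163 UMI was put on the high side (426 barcodes), the Gas6 call held, and those of Igf1 and Axl were lost, with log2 ratios of 3.09 for Igf1 and -1.0003 for Axl.

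Pros1, the other ligand of Mertk, was at 44.5 CPM in Cd163-high and 21.8 CPM in Cd163-low macrophages. The 2.04-fold ratio was not called, because suffix 6 went the other way (15.6 against 17.6 CPM), and without suffix 6 it was. Mertk, at 44.5 and 37.7 CPM, was higher in Cd163-high macrophages in 3 of 5 libraries. Both differed by C1qa in sums over the class. In the 85 barcodes high for Cd163 and C1qa, Mertk was at 73.2 CPM (58.9 to 89.8) and Pros1 at 74.8 CPM (60.4 to 91.6), whereas in the 135 high for Cd163 and low for C1qa they were at 22.4 CPM (15.7 to 31.0) and 21.1 CPM (14.6 to 29.5). Libraries entered these sums unequally, with 37 of the 135 barcodes from suffix 6, and in suffix 5 Mertk was at 48.3 against 35.8 CPM and Pros1 at 96.6 against 30.7 CPM. Gas6 was at 514 and 239 CPM. Igf1 was at 138 CPM in both sums, while its libraries went both ways, with 107 against 420 CPM in suffix 4 and 148 against 92.0 CPM in suffix 3. In suffix 5, the only library with 20 barcodes on both sides, it was at 206 and 213 CPM.

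Counts thinned to 2000 UMIs per barcode give the same contrast as shares of cells. A Gas6 UMI was found in 49.1% of 218 Cd163-high and 9.31% of 4459 Cd163-low macrophages, and an Igf1 UMI in 20.2% and 2.29%. Lymphocyte barcodes without Csf1r or Adgre1 UMIs, which should lack both RNAs, gave 0.982% and 0.655% of 611. In suffix 5, the source of 99 of the 220 Cd163-high barcodes, lymphocytes were at 42.5 CPM of Gas6 and 28.3 CPM of Igf1, against 3.72 and 1.69 CPM over all libraries. Unthinned shares were 74.1% against 29.2% for Gas6 and 50.9% against 8.37% for Igf1, with median depths of 10092.5 and 13508 UMIs in the Cd163-high and Cd163-low class. Summed macrophage markers were 13111 CPM in Cd163-high and 12362 CPM in Cd163-low macrophages.

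**Figure D2:**
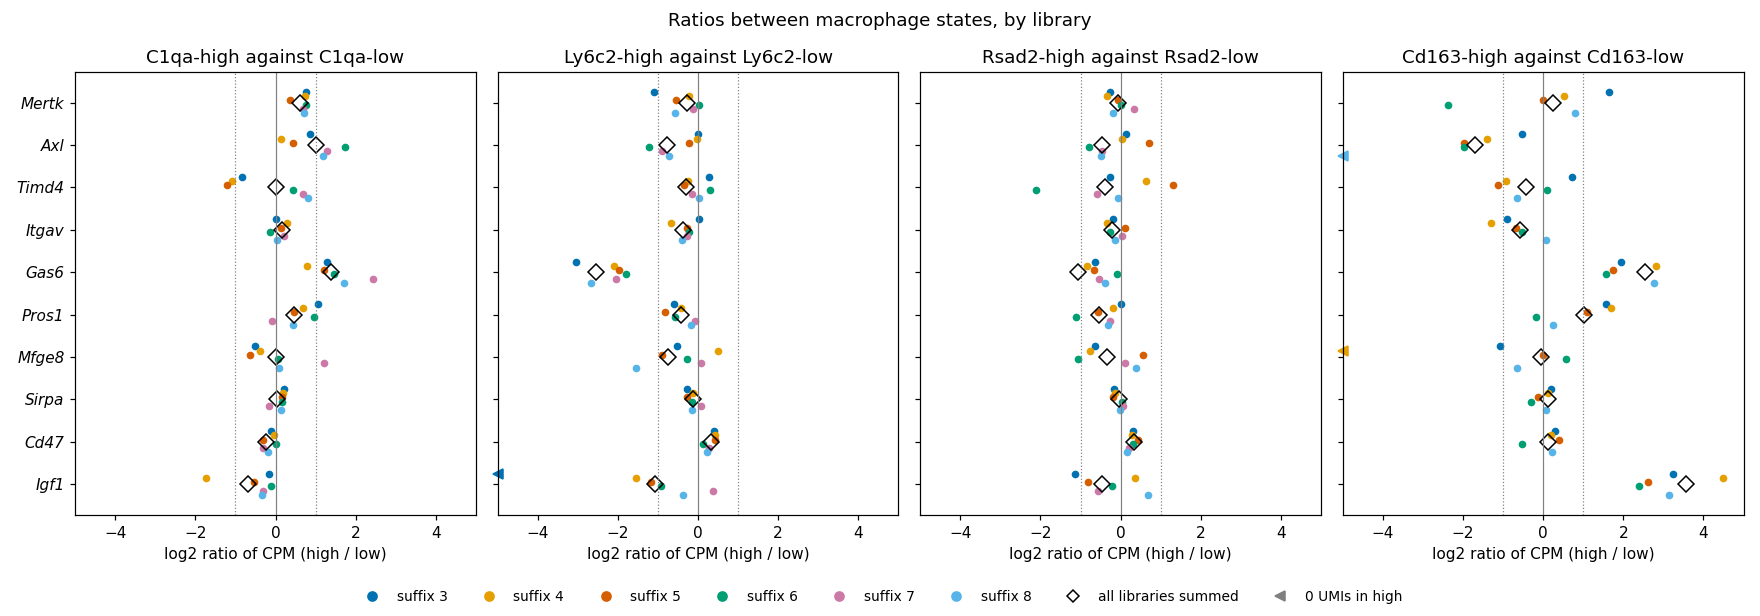
Log2 ratio of CPM between the high and the low class of each macrophage split, where points are libraries with at least 20 barcodes in both classes, diamonds are all libraries summed and dotted lines mark a 2-fold difference. Gas6 lies right of 0 for C1qa and Cd163 and left of 0 for Ly6c2 and Rsad2 in every library drawn, and triangles at the left edge are libraries with 0 UMIs in the high class.

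C1qa-high macrophages, 2298 of the 4688, were higher in Gas6, Axl and Mertk than C1qa-low ones in 6 of 6 libraries. Axl, the stress-induced receptor, stood at 63.6, 58.9, 54.4, 59.6, 58.6 and 41.0 CPM in C1qa-high macrophages of suffixes 3 to 8, against 34.8, 53.4, 39.99, 18.0, 24.1 and 18.1 CPM in C1qa-low ones. The C1qa-high levels were close together apart from suffix 8, and the C1qa-low levels spread almost 3-fold. Summed, the values were 54.2 and 26.9 CPM, a ratio of 2.02 (1.86 to 2.19). That lay at the limit of the call, and without suffix 6, 7 or 8 the log2 ratio of 1.01 became 0.83, 0.96 or 0.97.

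Gas6 was at 138, 71.9, 279, 43.0, 53.5 and 75.4 CPM in C1qa-high macrophages and at 56.4, 42.0, 121, 15.6, 9.87 and 23.1 CPM in C1qa-low ones. The summed ratio was 2.63 (2.46 to 2.81), from 98.3 and 37.4 CPM. Mertk, the principal efferocytosis receptor of mature macrophages, was at 44.2 against 29.0 CPM, a ratio of 1.53 (1.41 to 1.66) that was not called. It lay between 37.7 and 54.5 CPM over the libraries in C1qa-high and between 22.1 and 36.3 CPM in C1qa-low macrophages, so the 2 ranges did not overlap. Of all genes 3.13% were called higher in C1qa-high macrophages, and of the 9 members tested 2 were, Axl and Gas6. At double the C1qa threshold neither was called and Igf1 was instead, as lower, and the log2 ratio of Gas6 went from 1.39 to 0.34. Within Ly6c2-low macrophages neither was called, where 4.37% of all genes were called in either direction. Axl was at 54.6 against 30.4 CPM and Gas6 at 102 against 60.0 CPM there.

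Igf1 was lower in C1qa-high macrophages in 6 of 6 libraries, at 13.4 against 21.4 CPM, a ratio of 0.625 (0.557 to 0.700) that was not called. None of the 9 members was called lower, where 2.90% of all genes were. Igf1 was highest among C1qa-low Ly6c2-low macrophages, at 31.2 CPM, against 13.5 CPM in C1qa-high Ly6c2-low and 8.19 CPM in C1qa-low Ly6c2-high ones. With Cd163-high barcodes set aside it was at 9.64 CPM in C1qa-high and 14.8 CPM in C1qa-low macrophages. Igf1 and Gas6, both higher with Cd163, therefore differed in opposite directions across the C1qa split.

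Timd4, found on resident macrophages in many tissues, had the same summed level on both sides of the C1qa split, 17.4 and 17.3 CPM, and this hid opposite libraries. In suffixes 3, 4 and 5 it was at 16.5, 22.4 and 10.8 CPM in C1qa-high and at 29.6, 47.2 and 25.2 CPM in C1qa-low macrophages. In suffixes 6, 7 and 8 it was at 12.7, 18.9 and 16.3 CPM in C1qa-high and at 9.40, 11.7 and 9.38 CPM in C1qa-low macrophages. The C1qa-low class was higher in the first 3 libraries and lower in the other 3, and no label says what sets these libraries apart.

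Ly6c2-high macrophages, 1249 barcodes, had little Gas6. It stood at 14.9, 16.5, 58.7, 10.0, 11.6 and 10.2 CPM in suffixes 3 to 8, against 124, 70.4, 231, 35.1, 48.2 and 64.9 CPM in Ly6c2-low macrophages. Every library was lower on the Ly6c2-high side, and suffix 5 alone had a Ly6c2-high level within the range of the Ly6c2-low levels. Summed, Gas6 was at 15.2 against 89.6 CPM, 5.88-fold lower (5.17 to 6.71), with a median of 4.21-fold within a library. The lowest level of the combined splits was 7.10 CPM (5.71 to 8.71) in C1qa-low Ly6c2-high macrophages.

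Gas6 was the 1 member of 9 called lower in Ly6c2-high macrophages, where 3.56% of all genes were. Igf1 was at 8.96 against 18.8 CPM, with suffix 7 opposed, and was called lower when suffix 7 was left out. At 8.96 CPM it passed the minimum only through the Ly6c2-low class, so at that level only a lower call was possible. Axl was at 27.5 against 47.3 CPM and lower in 5 of 6 libraries. Pros1 was at 17.9 against 24.0 CPM and lower in 6 of 6 libraries. Cd47 was higher in 6 of 6 libraries, at 372, 437, 457, 460, 435 and 446 CPM against 281, 325, 341, 420, 358 and 384 CPM. Its summed ratio was 1.26 (1.22 to 1.29), and no member was called higher, where 1.88% of all genes were.

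Rsad2-high macrophages, 1022 barcodes, were higher in Cd47 than Rsad2-low ones in every library. It was at 353, 402, 466, 488, 427 and 431 CPM in Rsad2-high macrophages of suffixes 3 to 8, against 283, 327, 346, 391, 367 and 387 CPM in Rsad2-low ones. The ratio of 1.26 (1.22 to 1.29) was not called, where 1.48% of all genes were called higher and no member was. Gas6 was called lower, at 39.6 against 82.2 CPM, where 0.417% of all genes were. The ratio taken within each library had a median of 0.662, short of the call. Suffix 6 had the highest share of Rsad2-high macrophages, 51.7%, and the lowest Gas6. Without suffix 5 or 6 the log2 ratio was -0.82 or -0.84, and the call was lost.

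Itgav and Sirpa were called in none of the macrophage splits. Over the 6 libraries, Mertk lay between 32.6 and 44.1 CPM, Itgav between 40.2 and 55.003 CPM and Sirpa between 385 and 599 CPM. Sirpa was at 455 and 441 CPM in C1qa-high and C1qa-low, at 420 and 457 CPM in Ly6c2-high and Ly6c2-low, and at 487 and 448 CPM in Cd163-high and Cd163-low macrophages. Axl lay between 29.7 and 57.7 CPM. Mfge8 lay between 3.25 and 10.3 CPM. After thinning, 1.03% of macrophages had a UMI of it, against 1.47% of lymphocytes. Lymphocytes with Ncr1 were at 9.46 CPM of Mfge8 (6.24 to 13.8) and those with Cd3e at 4.91 CPM (2.68 to 8.24). Lymphocytes are thus no blank for this gene.

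Across macrophage barcodes, 45 pairs of the genes were compared by Pearson's r of log2(CPM + 100) within each library. Gas6 and Igf1 gave a median r of 0.36 over the 6 libraries (0.14 to 0.46), and 0.19 after thinning to 2000 UMIs, the only pair then at 0.1 or more. Both had a UMI in 72 thinned barcodes, where 24.5 would be expected from their own shares within each library. The other pairs had median r from -0.07 to 0.14 and are weak in counts this sparse. Mertk and Axl, 2 receptors of the same family, shared 17 thinned barcodes against 21.7 expected, and Axl and its ligand Gas6 shared 30 against 40.6. Other pairs lay above expectation. Gas6 and Pros1 shared 40 against 23.6, Mertk and Gas6 40 against 33.7, and Pros1 and Igf1 12 against 6.56. Barcodes of a library share its free RNA and its range of depth, and these values are descriptions.

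**Figure D3:**
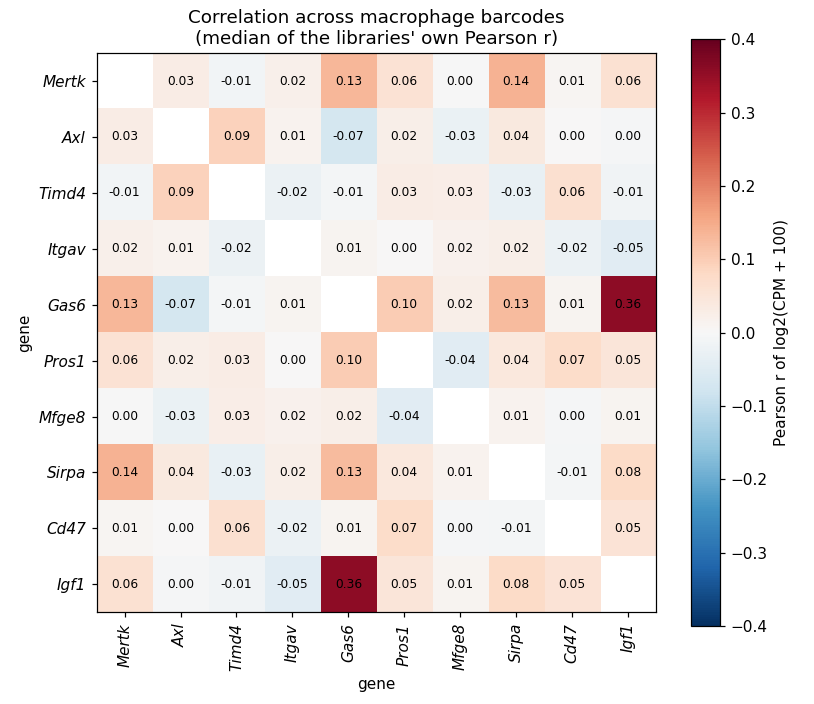
Median over the 6 libraries of Pearson's r between pairs of the 10 genes across macrophage barcodes, on log2(CPM + 100), where red is positive and blue negative. Gas6 with Igf1 (0.36) stands out, and the other 44 pairs lie between -0.07 and 0.14.

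Among 8106 genes with a UMI in at least 10% of macrophages, those most like Gas6 were Cbr2 (median r 0.52 over 6 libraries), Timp2 (0.51) and Npl (0.48). For Igf1 they were Gas6 (0.36), Ednrb (0.34) and Selenop (0.32). Sirpa was most like Sdc3 (0.30), Psap (0.28) and Lgmn (0.26), the last 2 of them lysosomal. Axl was most like Cd72 (0.27), H2-DMb1 (0.27) and H2-Eb1 (0.26), the latter pair of the MHC class II pathway. Timd4 was most like Klrb1b (0.28), Cst3 (0.22) and H2-Eb1 (0.22), and Cd47 was most like Plac8 (0.25), Samhd1 (0.23) and the interferon-induced Ifi44 (0.23). For Pros1, Fcgrt (0.21) was the only gene at 0.2 or more. Mertk, Itgav and Mfge8 had none, with C1qc at 0.196 the nearest to Mertk.

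Dendritic barcodes were those with a Flt3 UMI, of which 92 also had at least 2 UMIs of Xcr1 and Clec9a together (markers of cross-presenting dendritic cells) and 252 did not. The labels were only partly borne out by markers. Of the 344 barcodes, 117 also met the macrophage rule and 76 had a Cd3e or Ncr1 UMI. The 117 were counted on both sides of the comparisons with macrophages. Summed dendritic markers were at 3493 CPM in the Xcr1/Clec9a class, 2622 CPM in the other Flt3 class and 1384 CPM in macrophages. Summed macrophage markers were at 6213, 7404 and 12392 CPM in the same order. The other Flt3 class also carried 1810 CPM of plasmacytoid dendritic markers, against 390 CPM in macrophages. Levels are therefore also given for the macrophage-poor barcodes of each class, those with under 3 UMIs of Csf1r and Adgre1 and none of Cd3e or Ncr1.

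Timd4 was higher in both dendritic classes than in macrophages, though not in dendritic barcodes with Siglech. In the other Flt3 class it was at 43.2, 42.2, 103, 58.0, 49.9 and 83.5 CPM in suffixes 3 to 8, against 20.7, 28.0, 17.4, 10.3, 16.5 and 13.5 CPM in macrophages. The 2 sets did not overlap, and the summed ratio was 3.83 (3.37 to 4.34), from 66.4 and 17.4 CPM. In the Xcr1/Clec9a class Timd4 was at 84.8 CPM, 4.89-fold higher (4.23 to 5.62), and at 113 and 93.2 CPM in suffixes 4 and 5, the libraries with at least 20 barcodes. It was at 221 CPM (184 to 264) in the 32 macrophage-poor Xcr1/Clec9a barcodes. Their libraries spread widely, at 262, 627, 202, 0, 121 and 148 CPM in suffixes 3 to 8, from 4 to 11 barcodes each. In the 119 macrophage-poor barcodes of the other Flt3 class Timd4 was at 86.5 CPM (69.6 to 106). Of these 119, 48 came from suffix 5, at 129 CPM. Suffixes 3, 5, 6 and 8 were above their macrophage level. Suffixes 4 and 7 were under it, at 16.1 against 28.0 CPM in 19 barcodes and at 0 against 16.5 CPM in 9.

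Timd4 was 1 of 2 members called higher in the other Flt3 class, where 5.94% of all genes were. The other was Mfge8, at 13.4 against 6.18 CPM, a ratio of 2.17 (1.63 to 2.83) higher in 6 of 6 libraries, whose log2 value of 1.11 became 0.992 or 0.996 without suffix 5 or 6. Mfge8 passed the minimum of 10 CPM only through this class, so it could be called only as higher. In the macrophage-poor barcodes it was at 13.3 CPM (7.27 to 22.3) and was not called, with 18.9 CPM in suffix 5 and 4.27 CPM in suffix 8, under the 6.68 CPM of the macrophages there. In the Xcr1/Clec9a class, 1 of 9 members was called higher, Timd4, where 5.81% of all genes were. A split of the other Flt3 class by Siglech, a marker of plasmacytoid dendritic cells, was chosen after its values were seen. Timd4 was at 101 CPM (89.3 to 114) in 154 barcodes without Siglech UMIs and at 8.95 CPM (5.11 to 14.5) in 94 with at least 2, and was higher without Siglech in each of the 6 libraries, of which only suffixes 4 and 5 had 20 barcodes in both groups. Cd47 went the other way, at 548 CPM (520 to 576) without Siglech and 750 CPM (711 to 792) with it, again in each library.

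Sirpa was lower in dendritic barcodes, at 214 CPM in the Xcr1/Clec9a class, 307 CPM in the other Flt3 class and 449 CPM in macrophages. The first was called, at 205 and 271 CPM in suffixes 4 and 5 against 385 and 599 CPM, where 3.84% of all genes were called lower. In the other Flt3 class no member was called lower, where 0.729% of all genes were. In macrophage-poor barcodes Sirpa was at 43.2 CPM (27.7 to 64.2) in Xcr1/Clec9a and 147 CPM (125 to 172) in other Flt3 barcodes. Mertk, at 22.9 and 19.7 CPM in the 2 classes, was at 1.80 CPM (1 UMI) and 6.65 CPM (7 UMIs) there. Cd47 was at 511 and 867 CPM in the same barcodes. In the macrophage-poor barcodes of the other Flt3 class, 2 libraries counted. Timd4 and Cd47 were called higher there, where 12% of all genes were, and Mertk, Axl, Gas6 and Sirpa lower, where 12.8% were. Mertk passed the minimum of 10 CPM only through macrophages, so at its level in these barcodes it could be called only as lower.

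Barcodes with at least 5 UMIs of S100a9, the rule for neutrophils, numbered 1049. Of these, 571 also met the macrophage rule, and only 141 had fewer than 3 UMIs of Csf1r and Adgre1. Their summed neutrophil markers were at 4652 CPM, against 972 CPM in macrophages, and their summed macrophage markers at 10024 CPM, against 12392 CPM, so they are called S100a9 barcodes here. S100a9, whose UMIs set the class, gave 2535 of the 4652 CPM and 470 of the 972 CPM. S100a8, which set no class, was at 1373 against 315 CPM. The 571 barcodes that met both rules were counted on both sides of the comparison with macrophages, which draws the ratios toward 1. None of the 9 members tested was called in either direction, where 2.11% of all genes were called higher and 0.0259% lower. Mertk was at 34.2 CPM, Axl at 31.2, Gas6 at 58.6, Sirpa at 383 and Cd47 at 398 CPM, against 37.95, 43.0, 73.2, 449 and 374 CPM in macrophages. Gas6 was lower in the sum but higher than in macrophages in 5 of 6 libraries, at a median of 1.13-fold, and 45 of the 1049 barcodes came from suffix 5, the library highest in Gas6.

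In the 121 macrophage-poor S100a9 barcodes, levels parted. Axl was at 14.1 CPM (7.68 to 23.6), Gas6 at 23.1 CPM (14.6 to 34.6) and Igf1 at 5.02 CPM (1.63 to 11.7), and these 3 of 9 were called lower than in macrophages, over 3 libraries, where 6.13% of all genes were. None was called higher, where 3.92% were. Suffix 5, highest in Gas6 and Igf1 among macrophages (206 and 54.1 CPM), gave only 6 of the 121 barcodes. Of the 3 libraries counted, only suffix 6 had Gas6 at least 2-fold lower. Gas6 was at 35.5 against 38.7 CPM in suffix 7 and 28.2 against 53.9 CPM in suffix 8. Igf1 was at 8.4 against 15.1, 5.07 against 5.22 and 0 against 8.43 CPM in suffixes 6, 7 and 8. Igf1 passed the minimum only through macrophages and could be called only as lower. Sirpa and Cd47, the inhibitory pair, stayed at 428 CPM (388 to 470) and 433 CPM (393 to 475). Sirpa therefore stood near its macrophage level in S100a9 barcodes and well under it in macrophage-poor dendritic barcodes. Summed macrophage markers were still at 4756 CPM in these 121 barcodes, and neutrophil markers at 10725 CPM, of which S100a9 itself gave 5862 CPM. Their monocyte markers were at 3055 CPM, against 1655 CPM in macrophages. Macrophage-poor other Flt3 barcodes were at 1471 CPM of macrophage and 2404 CPM of monocyte markers. The contrast in Sirpa is thus between classes of unlike macrophage content, and the part of this was not tested.

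Lymphocyte barcodes, 658 with a Cd3e or Ncr1 UMI and none of Csf1r or Adgre1, served as the background. They were kept for lacking these macrophage UMIs, at a median depth of 6629 UMIs, so their levels can understate free macrophage RNA. Mertk was at 0.677 CPM (0.184 to 1.73) there, Timd4 at 0.338, Igf1 at 1.69, Pros1 at 2.88 and Gas6 at 3.72 CPM. After thinning, 0 of 611 had a Mertk UMI, which allows a share of up to 0.491% by a limit of 3 counts and 0.602% by the exact interval, against 6.41% of 4677 macrophages. The shares exceeded those of lymphocytes in macrophages for 7 of the 10 genes, the exceptions being Itgav, Cd47 and Mfge8. Itgav was at 131 CPM in lymphocytes (97.5 to 162 over the libraries) and 49.3 CPM in macrophages (40.2 to 55.003). Cd47 was at 647 CPM (583 to 926) against 374 CPM (291 to 439). Neither pair of ranges overlapped. Suffix 5 stood apart, with 42.5 CPM of Gas6, 28.3 of Igf1 and 109 of Sirpa in its 54 lymphocyte barcodes, and between 0 and 5.33 CPM of Gas6 in the other libraries. The same library had the highest Gas6, Igf1 and Sirpa in macrophages, and the part of free RNA in this was not tested.

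Among these lymphocytes, natural killer barcodes (Ncr1) had 758 CPM of Cd47 (727 to 791) and 111 CPM of Itgav (99.5 to 124). Barcodes of T cells (Cd3e) had 550 CPM of Cd47 and 148 CPM of Itgav. Axl was at 2.80 CPM in the former and 13.3 CPM in the latter.

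Barcodes with a lymphocyte UMI and at least 4 of Csf1r and Adgre1 numbered 1510, at a median depth of 27102.5 UMIs against 13394.5 in macrophages and 6629 in lymphocytes. In these, Mertk was at 32.7 CPM, Axl at 33.4, Timd4 at 12.4, Itgav at 75.1, Gas6 at 66.0, Pros1 at 15.9, Sirpa at 331, Cd47 at 425 and Igf1 at 11.5 CPM. All 10 summed levels lay between those of lymphocytes and macrophages, at 65.5% to 89.5% of the way to the macrophage level. For Mfge8 the position has no meaning, because the intervals of lymphocytes (5.26 to 9.80 CPM) and macrophages (5.62 to 6.77 CPM) overlapped. C1qa, for comparison, lay at 82.8%. Csf1r lay at 77.4%, but its UMIs entered the rules of all 3 classes, so its position is no independent comparison. Mertk, Axl, Itgav, Sirpa and Cd47 lay between the 2 classes in 6 of 6 libraries, Timd4 and Pros1 in 5, Mfge8 and Igf1 in 4 and Gas6 in 3 of 6. No member was called against macrophages in either direction, where 3.64% of all genes were called higher and 0.113% lower. The largest of the differences was that of Itgav, 1.52-fold higher (1.45 to 1.60) in 6 of 6 libraries.

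**Figure D4:**
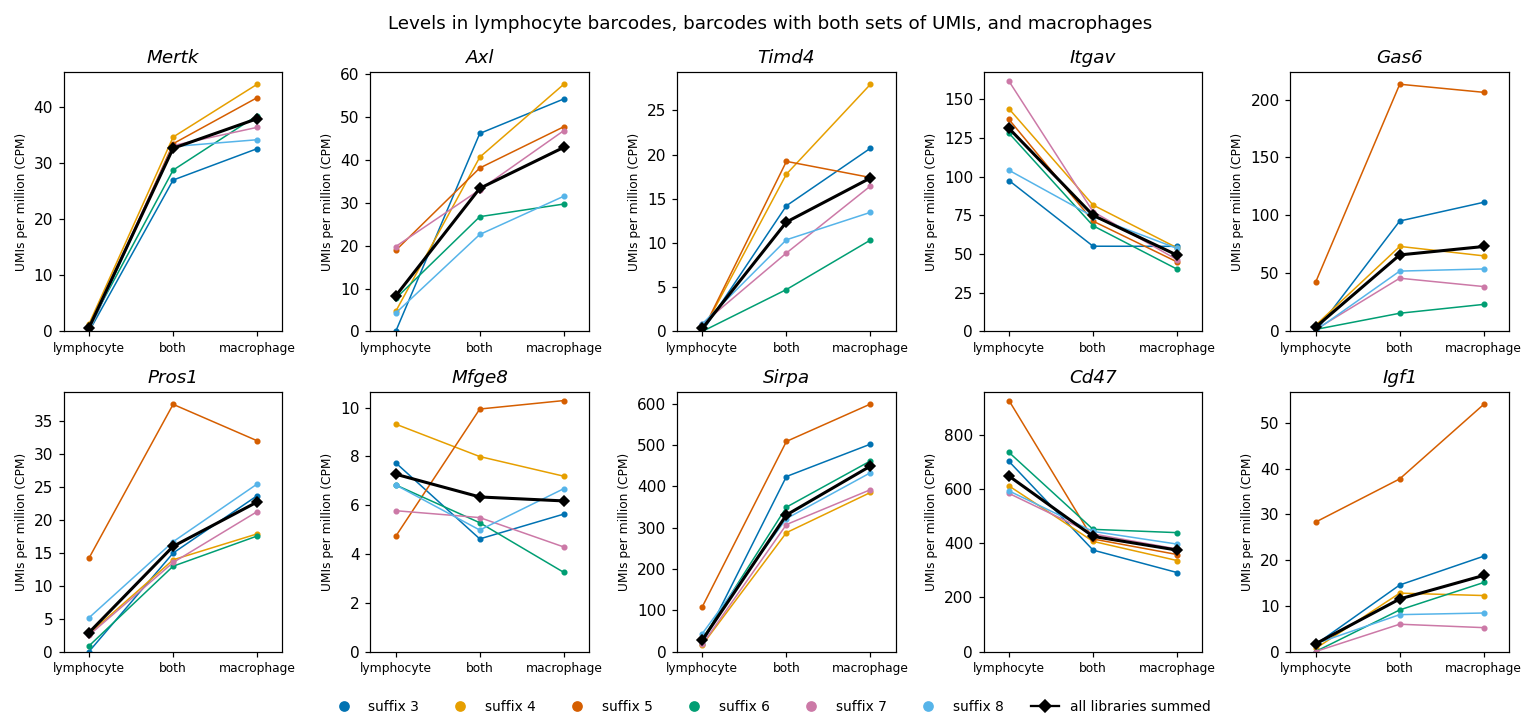
Levels in CPM (linear axis from 0) in lymphocyte barcodes, barcodes with lymphocyte and macrophage UMIs ("both") and macrophages, where colored lines are the 6 libraries and the black line is all libraries summed. The summed level of each gene in the mixed barcodes lies between the other 2, rising for Mertk (0.677, 32.7 and 37.95 CPM) and falling for Itgav (131, 75.1 and 49.3 CPM).

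Another 45 genes of the engulfment pathway were listed by role as receptors, bridging and find-me genes, engulfment machinery, digestion and lipid efflux, and inhibitory genes. In the C1qa split, 5 of the 35 tested were called higher and 3 lower, where 3.13% and 2.9% of all genes were. The 5 include C1qa itself, whose UMIs set the split, so its call was fixed by the rule. The others were C1qb and C1qc, which encode the remaining chains of C1q, the fractalkine receptor Cx3cr1 (49.5 against 11.4 CPM) and the scavenger receptor Stab1 (231 against 103 CPM). Chains of 1 complex are not separate counts, here or in the Ly6c2 split. The 3 called lower were the bridging factor Thbs1 (63.2 against 328 CPM), the inhibitory ligand Cd24a (16.8 against 49.99 CPM) and the lipid receptor Gpr132 (47.0 against 99.2 CPM). In the Ly6c2 split Thbs1 was called higher (400 against 108 CPM), and the C1q genes, Cx3cr1 and Stab1 lower, 1 and 5 of 35 where 1.88% and 3.56% of all genes were. The median log2 ratio of the listed genes was -0.01 in the C1qa and 0.03 in the Ly6c2 split, beside 0.03 and -0.04 over all genes.

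In the Cd163 split, 1 of 38 listed genes was called higher and 5 lower, where 2.31% and 1.96% of all genes were. Stab1 was at 344 against 171 CPM. The lipid receptor Cd36 was at 38.2 against 129 CPM, Thbs1 at 67.0 against 176, the phosphatidylserine receptor Havcr2 (TIM-3) at 23.5 against 59.9, Pilra at 27.7 against 89.9 and Cx3cr1 at 14.4 against 34.6 CPM. In the Rsad2 split Cd24a alone of 35 was called, at 66.3 against 20.8 CPM, where 1.48% of all genes were called higher.

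Against macrophages, the other Flt3 class had 4 of 40 listed genes called higher and 1 lower, where 5.94% and 0.729% of all genes were. The higher ones were Havcr1 (TIM-1, at 23.9 against 1.21 CPM), the inhibitory receptor Siglecg (14.5 against 1.85), the integrin subunit Itgb3 (19.3 against 3.70) and Cd24a (62.7 against 30.5 CPM), and the lower one was Thbs1. In the Xcr1/Clec9a class Cd24a (302 CPM) and Havcr1 (11.4 CPM) were called higher and 6 of 36 lower, where 5.81% and 3.84% of all genes were. Of the 6, P2ry2 (3.22 against 11.1 CPM) and Dock1 (8.94 against 21.8 CPM) passed the minimum only through macrophages. At those levels they could be called only as lower. Itgb3, a partner of Itgav, was the 1 of 37 called in the barcodes with lymphocyte and macrophage UMIs, at 20.3 against 3.70 CPM, where 3.64% of all genes were called higher. In S100a9 barcodes 2 of 36 were called higher, where 2.11% of all genes were. They were Itgb3 (12.2 against 3.70 CPM) and Cd24a (78.9 against 30.5 CPM). Havcr1, Siglecg and Itgb3 were under 10 CPM in macrophages and entered these comparisons only through the class where they were high, so they could be called in no other direction. The median log2 ratio of the listed genes was -0.34 in the other Flt3 and -0.64 in the Xcr1/Clec9a class, beside 0.02 over all genes in both. It was -0.11 in S100a9 and -0.24 in lymphocyte-macrophage barcodes, beside -0.03 and 0.01.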

How the data were processed

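Raw UMI counts of 6 tumors were deposited by the authors as 1 matrix of 20649 genes and 9235 barcodes. The submitters' processing notes name Cell Ranger 1.2, Seurat 3.1.5, R 4.0.1 and mm10; the filter on barcodes is not given in the sources used here. No further filter was applied, all columns were used, and doublets were not removed. Barcode suffixes match no sample label, so exoASO-STAT6 was not compared with exoASO-Scramble.

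UMIs were summed by class and library and divided by the class total (CPM). Intervals are exact at 95% (Poisson for CPM, Clopper-Pearson for shares, conditional binomial for ratios) and cover counting error only. Shares were taken after thinning to 2000 UMIs, leaving out shallower barcodes. Correlations used a pseudocount of 100 CPM, and the 3 genes most like each member were named at a median r of at least 0.2. High classes needed at least 2 UMIs and 2000 (C1qa), 300 (Ly6c2, Rsad2) or 200 (Cd163) per 1000000. The members and lists were chosen with earlier results of these data known. Alternatives changed thresholds, filters and libraries. The call rule was tested on simulated data, where it recovered 100% of 200 genes changed 4-fold between simulated high and low macrophages (20649 genes) and called 9 of 7406 unchanged genes. Simulated classes were of equal size in each library, and cells of a class differed only in depth. The simulation did not cover calls near 2-fold, genes near the minimum of 10 CPM, differences between libraries, or small and mixed classes. Python 3.11.15, NumPy 2.4.6, SciPy 1.17.1 and pandas 2.3.3 were used.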

Additional observations from a re-analysis of the deposited data

Results flagged for a closer look

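Igf1 in macrophages of suffix 5 stood at 54.1 CPM, against 20.9 CPM in the next library and 5.22 CPM in the lowest. The gap to the next library was 0.680 of the whole range, above the critical value of 0.625 for 6 samples. All 10 genes were looked at in this way, and Igf1 was the 1 that stood out, where chance flags about 1 in 20 groups. Gas6 in the same library came next, at 206 CPM and a gap of 0.518. Lymphocyte barcodes of suffix 5 held 28.3 CPM of Igf1, against 0 to 1.71 CPM in the other libraries, and Cd163-high barcodes were 11.8% of its macrophages, the highest share. The part of either in the Igf1 level was not tested. The libraries have no known treatment.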

How the results depend on the processing

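The main counts of called members were 2 for C1qa, 1 each for Ly6c2 and Rsad2, 3 for Cd163, 2 for each dendritic class and 0 for S100a9 and for lymphocyte-macrophage barcodes. For C1qa it was 1 with at least 6 Csf1r and Adgre1 UMIs, with 300 of them per 1000000, with S100a9 and dendritic barcodes left out and with a split at the library median (Axl lost each time), 1 at double the threshold (Axl and Gas6 lost, Igf1 added), where the log2 ratio of Gas6 was 0.34, 4 at 1.5-fold, 0 at 3-fold and 0 within Ly6c2-low macrophages. For Ly6c2 it was 2, with Igf1 added, at 300 per 1000000 and at double the threshold. For Rsad2 it was 0 with at least 6 such UMIs, at 3-fold, at 0.5 of the threshold, at the library median, from the median of library ratios and within C1qa-low macrophages. For Cd163 it was 1 at the library median, 2 at a minimum of 50 CPM (Axl lost) and 4, with Pros1 added, with at least 6 such UMIs, at 300 per 1000000 and within C1qa-high macrophages. For Xcr1/Clec9a barcodes it was 4 at 1.5-fold, 1 at 3-fold, 3 from the median of library ratios and 0 with macrophage and lymphocyte barcodes left out, where no library had 20 barcodes. For other Flt3 barcodes it was 5 at 1.5-fold, 1 at 3-fold, 1 at a minimum of 50 CPM and 6 with those barcodes left out, and 3, with Mertk added, with macrophages of at least 6 such UMIs or 300 per 1000000, from the mean of barcodes and from the median of library ratios. For S100a9 barcodes it was 3 with those barcodes left out, and for lymphocyte-macrophage barcodes 1 at 1.5-fold. The share of all genes called in either direction moved with these settings. In the main setting it was 6.02% for C1qa, 5.43% for Ly6c2, 1.90% for Rsad2 and 4.27% for Cd163. In the same setting it was 9.65% for Xcr1/Clec9a, 6.67% for other Flt3, 2.13% for S100a9 and 3.75% for lymphocyte-macrophage barcodes. For Ly6c2 it was 5.45% at 300 per 1000000 and 6.30% at double the threshold. For Rsad2 it was 1.39% with at least 6 such UMIs, 0.521% at 3-fold and 1.39% at 0.5 of the threshold. At 1.5-fold it was 14.6% for C1qa, 23.2% for Xcr1/Clec9a, 15.1% for other Flt3 and 7.18% for lymphocyte-macrophage barcodes, and at 3-fold 1.78%, 3.93% and 3.88% for the first 3 of these. With macrophage and lymphocyte barcodes left out it was 24.8% for other Flt3 and 10.1% for S100a9 barcodes. In the settings named for Cd163 it lay between 1.64% and 7.91%. Pairs at r of 0.1 or more fell from 5 to 1 after thinning. The cause of these changes was not tested, beyond the smaller classes and thresholds named.

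With each library left out in turn, the count ranged from 1 to 2 for C1qa and Ly6c2, 0 to 1 for Rsad2, 3 to 4 for Cd163 and 1 to 3 for other Flt3 barcodes, and was 2 throughout for Xcr1/Clec9a and 0 for S100a9 and lymphocyte-macrophage barcodes. Where the count changed, the share of all genes called was 5.53%, 5.88% and 5.83% for C1qa (without suffix 6, 7 and 8). It was 5.42% for Ly6c2 (without suffix 7), and 2.24% and 1.33% for Rsad2 (without suffix 5 and 6). Cd163 stood at 5.69% (without suffix 6), and other Flt3 barcodes at 7.52%, 6.36% and 6.55% (without suffix 4, 5 and 6). Over all alternatives, 164 log2 ratios of called members were computed. Of these, 107 stayed within the counting interval of the main ratio, 57 moved out of it and 0 changed sign. The settings within C1qa or Ly6c2 classes and the median of library ratios were chosen after seeing the data. No paired analysis was possible because the columns carry no sample or replicate number that would pair treatments, although classes were compared within each library throughout. At about 10 CPM and a median depth of 13394.5 UMIs most macrophages have no UMI of a gene, which limits Timd4, Mfge8 and Igf1 most.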
